A study of Danio rerio with 6 samples.

Results

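The circadian clock genes are described here in the nose of adult zebrafish (Danio rerio), in dissected olfactory rosettes, which are folded organs lined by sensory epithelium. They were chosen by symbol alone: the period genes, the cryptochromes, clock and bmal, the nr1d (Rev-erb) receptors, ciart, nfil3 and tef. The rule found 26 probes for 18 genes, among 16227 probes and 5352 gene symbols on the array. Of these, 24 probes for 17 genes could be tested, and 7 of the 18 genes had several probes. The study had 3 wild-type samples, from siblings of the mutants, and 3 samples of homozygous Rag1 mutants, which lack a protein needed to assemble antigen receptor genes. All fish were untreated, 1 to 2 years old and of mixed sex. RNA of whole rosettes was hybridised in 1 colour, with 1 array per sample. The labels do not say how many fish gave a sample or whether samples came from separate fish, so the spread behind every p-value is that of these 6 samples and may be technical. They give no time of day at which fish were killed, and no light schedule.

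The vertebrate clock is a loop of transcription. CLOCK and BMAL proteins pair and switch on genes that carry E-boxes, among them the period and cryptochrome genes, whose products return to the nucleus and block the pair. Rev-erb receptors, coded by nr1d genes, form a second loop by repressing bmal, while TEF activates and NFIL3 represses genes through D-boxes. In zebrafish, clocks run in most tissues and can be set by light falling on the tissue itself. Transcripts of per1b, per3 and the Rev-erb genes are known to peak near dawn and those of clock and bmal near dusk, so their balance in a sample depends on the hour of sampling.

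Values are log2 brightness after normalization. The median gene spot was 4.75 to 7.21 times as bright as the blank spots, and correlations across probes between arrays ran from 0.981 to 0.988 for wild-type pairs, from 0.983 to 0.987 for mutant pairs and from 0.963 to 0.973 for mixed pairs. The rag1 probe read 6.48 to 6.71 in wild type and 6.68, 6.74 and 11.92 in the mutants, where the last came from a spot with a pixel SD of 3.18 times its mean. It did not separate the groups (adjusted p = 0.483, limma), and which part of the transcript it detects relative to the mutation was not established here. The source field of mutant array 2 reads wild type, while its title and strain field give the mutant. One print block of wild-type array 2 was read 1 row of spots off and was left out on all arrays. The neuron markers cnga2, ebf2 and gng13b, the 3 of 11 listed that could be tested, exceeded the blank level on each of the 6 arrays. Their summed linear level was 49330 to 59224 in wild type and 27201 to 34014 in the mutants. The sum over 5 of 8 neutrophil markers was 4180 to 6580 against 11348 to 30422. In whole tissue, fewer cells of a type and less RNA per cell cannot be told apart, which applies to every difference below.

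Among the clock genes, tefa fell in the mutants, and no other clock gene passed the test. This was 1 of 24 probes (4.17%), against 4.78% of all probes. The tefa call was lost on leaving out any single array other than mutant array 2. TEFA is a light-inducible activator of D-box genes in zebrafish. The remaining 23 probes ranged from -0.94 to 0.78 in their log2 difference, mutant minus wild type. The second result concerns a single array. Wild-type array 1 lay over 0.5 (log2) outside the range of the other 5 on 7 of 24 clock probes, against 2.41% of all. That distance was chosen after the values had been seen. High were an nr1d2b probe, ciarta, per1b and a cry1b probe, and low were both nfil3-5 probes and a cry3b probe.

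Mutant and wild-type arrays were compared probe by probe with limma over all 15617 probes tested, with Benjamini-Hochberg adjustment and a threshold of 0.05. The count of clock probes called was 1 of 24 (4.17%), against 4.78% of all probes (2.36% lower and 2.43% higher), so the share was near the background. All 5 clock probes with an unadjusted p under 0.05 were lower in the mutants, at 20.8% of the 24 against 21% of all probes in either direction and 10.8% in that direction. The 3 mutant arrays lay wholly below the 3 wild-type arrays on 4 clock probes (16.7%), and wholly above on 0, against 12.8% below and 13% above over all probes. Differences were below 0 on 16 of 24 clock probes, against 48.7% of all probes, with a median of -0.21 against 0.01. Without wild-type array 1 the clock median was -0.03, with 15 of 24 below 0, 3 of 24 at an unadjusted p under 0.05 (12.5%, against 20.3% of all) and 0 called by limma, against 3.8% of all probes. The clock probes with a difference over 0.5 in size fell from 8 of 24 to 3 of 24 when that array was left out. Over all probes their number was 2469 of 15617 with all arrays and 2739 of 15723 without that array.

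**Figure D1:**
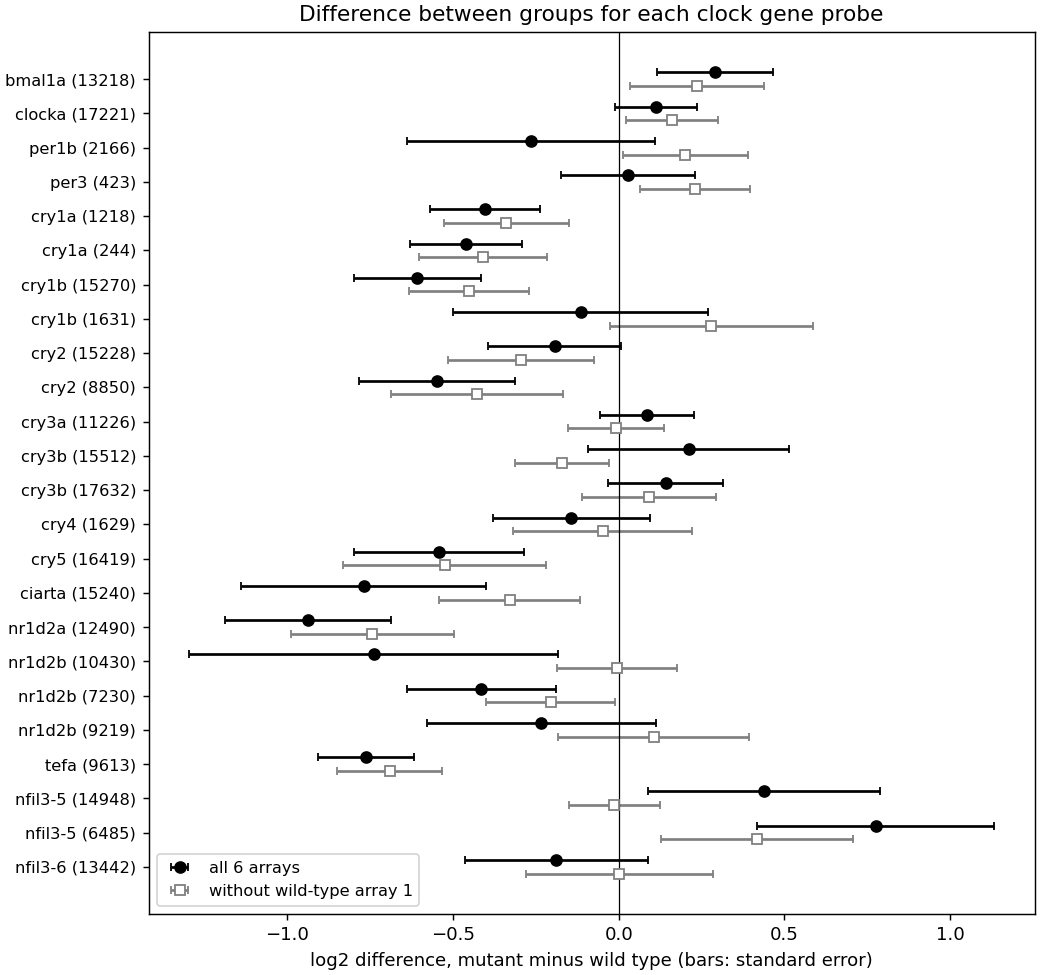
Log2 difference between groups (mutant minus wild type, x axis) for the 24 clock gene probes (y axis, gene and spot number), with bars for the standard error; filled circles use all 6 arrays and open squares leave out wild-type array 1. The tefa probe lies at -0.76 with all arrays and -0.69 without that array, while nr1d2b at spot 10430 moves from -0.74 to -0.00.

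The activators were measured by 3 probes. CLOCK, coded by clocka, read 6.65, 6.50 and 6.53 in wild type and 6.69, 6.78 and 6.55 in the mutants. These readings were close to the 95th percentile of the blank spots, which was 6.19 to 6.30 over the arrays. That percentile was taken before quantile normalization and the readings after it, so their distance is approximate. The groups overlapped, with a difference of 0.11 (SE 0.12, adjusted p = 0.687, limma). Its partner gene bmal1a read 9.37, 9.55 and 9.52 against 10.02, 9.87 and 9.42. Mutant arrays 1 and 2 were above every wild-type array and mutant array 3 was not, and the difference was 0.29 (SE 0.18, adjusted p = 0.412, limma). A paralogue, bmal2, could not be compared, because its spot lay in the row of the misread block for which wild-type array 2 has no reading. On the 5 other arrays it read 5.96 to 6.26, at the level of the blank spots, and exceeded their 95th percentile on 1 array.

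The period genes code for the repressors that bind cryptochromes. On per1b the wild-type arrays read 12.83, 11.49 and 11.38 and the mutant arrays 11.94, 11.41 and 11.56. Wild-type array 1 alone was high, and the other 5 arrays overlapped. The difference was -0.26 (SE 0.37, adjusted p = 0.766, limma) and turned to 0.20 without that array. On per3 the wild-type arrays read 7.10, 6.66 and 6.34 and the mutants 6.57, 6.80 and 6.83. Here too array 1 was the highest, in a probe near the blank level, and the difference was 0.03 (SE 0.20, adjusted p = 0.964, limma). Its sign changed when wild-type array 3, mutant array 2 or mutant array 3 was left out.

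The cryptochrome symbols have changed over time. The genes now named cry3a and cry3b were earlier called cry2a and cry2b, and cry2 was earlier cry3. In zebrafish, cry1a, cry1b, cry3a and cry3b code for repressors of the CLOCK and BMAL pair, whereas the products of cry2 and cry4 do not repress it in cell assays. The product of cry5 is a DNA repair photolyase.

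The light-inducible repressor cry1a had 2 probes that gave similar differences. At spot 244 wild type read 11.68, 11.76 and 11.28 and the mutants 11.30, 11.07 and 10.96. The lowest wild-type array lay just under the highest mutant array, and the difference was -0.46 (SE 0.17, adjusted p = 0.171, limma). At spot 1218 wild type read 11.04, 10.96 and 10.72 and the mutants 10.26, 10.76 and 10.50. Mutant array 2 reached into the wild-type range, and the difference was -0.40 (SE 0.17, adjusted p = 0.220, limma).

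The 2 probes of cry1b differed in pattern. At spot 15270 wild type read 11.07, 10.56 and 10.64 and the mutants 10.13, 9.91 and 10.42. The groups did not overlap, yet the difference of -0.61 (SE 0.19, adjusted p = 0.121, limma) did not pass the test. At spot 1631 wild type read 9.93, 8.93 and 8.58 and the mutants 9.39, 8.43 and 9.27. Wild-type array 1 was the highest and the rest overlapped, and the difference was -0.12 (SE 0.38, adjusted p = 0.916, limma).

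For cry2, the probe at spot 8850 read 11.64, 11.19 and 11.38 in wild type and 11.04, 11.18 and 10.35 in the mutants. The groups were apart by a margin of 0.01 between wild-type array 2 and mutant array 2, and mutant array 3 was the low one. The difference was -0.55 (SE 0.24, adjusted p = 0.239, limma). At spot 15228 wild type read 10.88, 11.11 and 11.26 and the mutants 10.54, 10.88 and 11.25. The groups overlapped, with a difference of -0.19 (SE 0.20, adjusted p = 0.667, limma).

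The remaining cryptochromes overlapped between groups. The cry3a probe spanned 9.34 to 9.72 over all 6 arrays, with a difference of 0.08 (SE 0.14). For cry3b at spot 15512 wild type read 10.56, 11.82 and 11.58 and the mutants 11.56, 11.55 and 11.48. Wild-type array 1 was low and the other 5 arrays lay close together, and the difference of 0.21 (SE 0.30, adjusted p = 0.769, limma) became -0.17 without it. The dim cry3b probe at spot 17632 spanned 6.87 to 7.47, and its highest value was on mutant array 3. The cry4 probe spanned 8.26 to 8.69 in wild type, and its highest value, 8.86 on mutant array 3, and its lowest, on mutant array 2, were both in the mutants. For the photolyase cry5, wild type read 9.92, 10.02 and 9.70 and the mutants 9.19, 9.92 and 8.89. Mutant arrays 1 and 3 were low and mutant array 2 was within the wild-type range, and the difference was -0.54 (SE 0.26, adjusted p = 0.285, limma).

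The gene ciarta codes for CIART, known in mammals as a repressor of the CLOCK and BMAL pair. Wild type read 13.02, 11.46 and 11.94 and the mutants 11.09, 11.49 and 11.53. Wild-type array 1 was far above the others and the remaining arrays overlapped. The difference was -0.77 (SE 0.37, adjusted p = 0.291, limma) with that array and -0.33 (SE 0.21) without it.

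Among the Rev-erb receptors, nr1d2a at spot 12490 had the largest difference of all clock probes. Wild type read 14.13, 13.22 and 13.90 and the mutants 12.74, 12.61 and 13.10. The groups did not overlap, with the lowest wild-type array 0.12 above the highest mutant array. The difference was -0.94 (SE 0.25), a 1.91-fold lower mean in the mutants, and it did not pass the test (adjusted p = 0.0820, limma). It passed under median scaling in place of quantile normalization (adjusted p = 0.0289, limma), on the ratios of the authors' deposited table (0.0238), without wild-type array 2 (0.0410) and with a block for the arrays titled as second sample (0.0386). Over 20 alternatives it ranged from -1.20 to -0.74, with adjusted p values of 0.0238 to 0.204. Its other probe, at spot 6019, lay in the same row of the misread block as bmal2 and read 6.02 to 6.21 on the 5 other arrays, above the blank percentile on 0 of them.

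The paralogue nr1d2b had 3 probes, and wild-type array 1 was the highest on each. At spot 10430 wild type read 10.11, 7.77 and 8.04 and the mutants 7.73, 8.15 and 7.83. The other 5 arrays lay within a narrow band and array 1 lay far above it, and the group difference of -0.74 (SE 0.56, adjusted p = 0.524, limma) became -0.00 without it. At spot 9219 wild type read 10.58, 9.63 and 9.50 and the mutants 9.66, 10.18 and 9.16. The difference was -0.23 (SE 0.35, adjusted p = 0.778, limma), and 0.11 without array 1. At spot 7230 wild type read 11.76, 11.33 and 10.95 and the mutants 11.05, 11.07 and 10.67. The arrays overlapped, with a difference of -0.41 (SE 0.22, adjusted p = 0.353, limma).

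The called gene, tefa, read 12.71, 12.51 and 12.47 in wild type, a mean of 12.56 ± 0.13 (SD, n = 3), and 11.82, 11.98 and 11.60 in the mutants, a mean of 11.80 ± 0.19 (SD, n = 3). Every mutant array was below every wild-type array, and the arrays of each group lay close together. The difference was -0.76 (SE 0.14, adjusted p = 0.0311, limma), a 1.70-fold lower mean in the mutants. Over 20 alternatives it ranged from -0.88 to -0.66, with adjusted p values of 0.0142 to 0.131, and the call held in 14. With mutant array 2, whose source field reads wild type, left out, the difference was -0.86 and the call held (adjusted p = 0.0458, limma). The call was lost on leaving out wild-type array 1 (adjusted p = 0.0695, limma), 2 (0.0899) or 3 (0.0755) or mutant array 1 (0.0980) or 3 (0.0903), and without both second-sample arrays (0.131). In the same mutant arrays the summed neuron markers were lower and the summed neutrophil markers higher, as given above. The sum over 6 of 9 macrophage markers was 81960 to 90446 in wild type and 97171 to 113010 in the mutants. That over 5 of 8 red blood cell markers was 15710 to 21036 against 26407 to 67484, although 1 of these 5 was lower in the mutants. The sums of surface epithelium and muscle markers overlapped. The part of these cell types in the tefa difference was not tested.

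NFIL3 family proteins repress the D-box genes that TEF activates. At spot 6485, nfil3-5 read 11.76, 12.59 and 13.07 in wild type and 13.75, 12.83 and 13.16 in the mutants. Wild-type array 1 was the lowest and mutant array 1 the highest, and the difference was 0.78 (SE 0.36, adjusted p = 0.273, limma). At spot 14948 wild type read 8.93, 10.22 and 10.35 and the mutants 10.38, 10.23 and 10.21. Only wild-type array 1 differed, and the difference of 0.44 (SE 0.35, adjusted p = 0.551, limma) became -0.01 without it. The relative nfil3-6 read 13.09, 12.56 and 12.48 against 12.10, 12.39 and 13.07. Its groups overlapped, with a difference of -0.19 (SE 0.28, adjusted p = 0.776, limma).

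**Figure D2:**
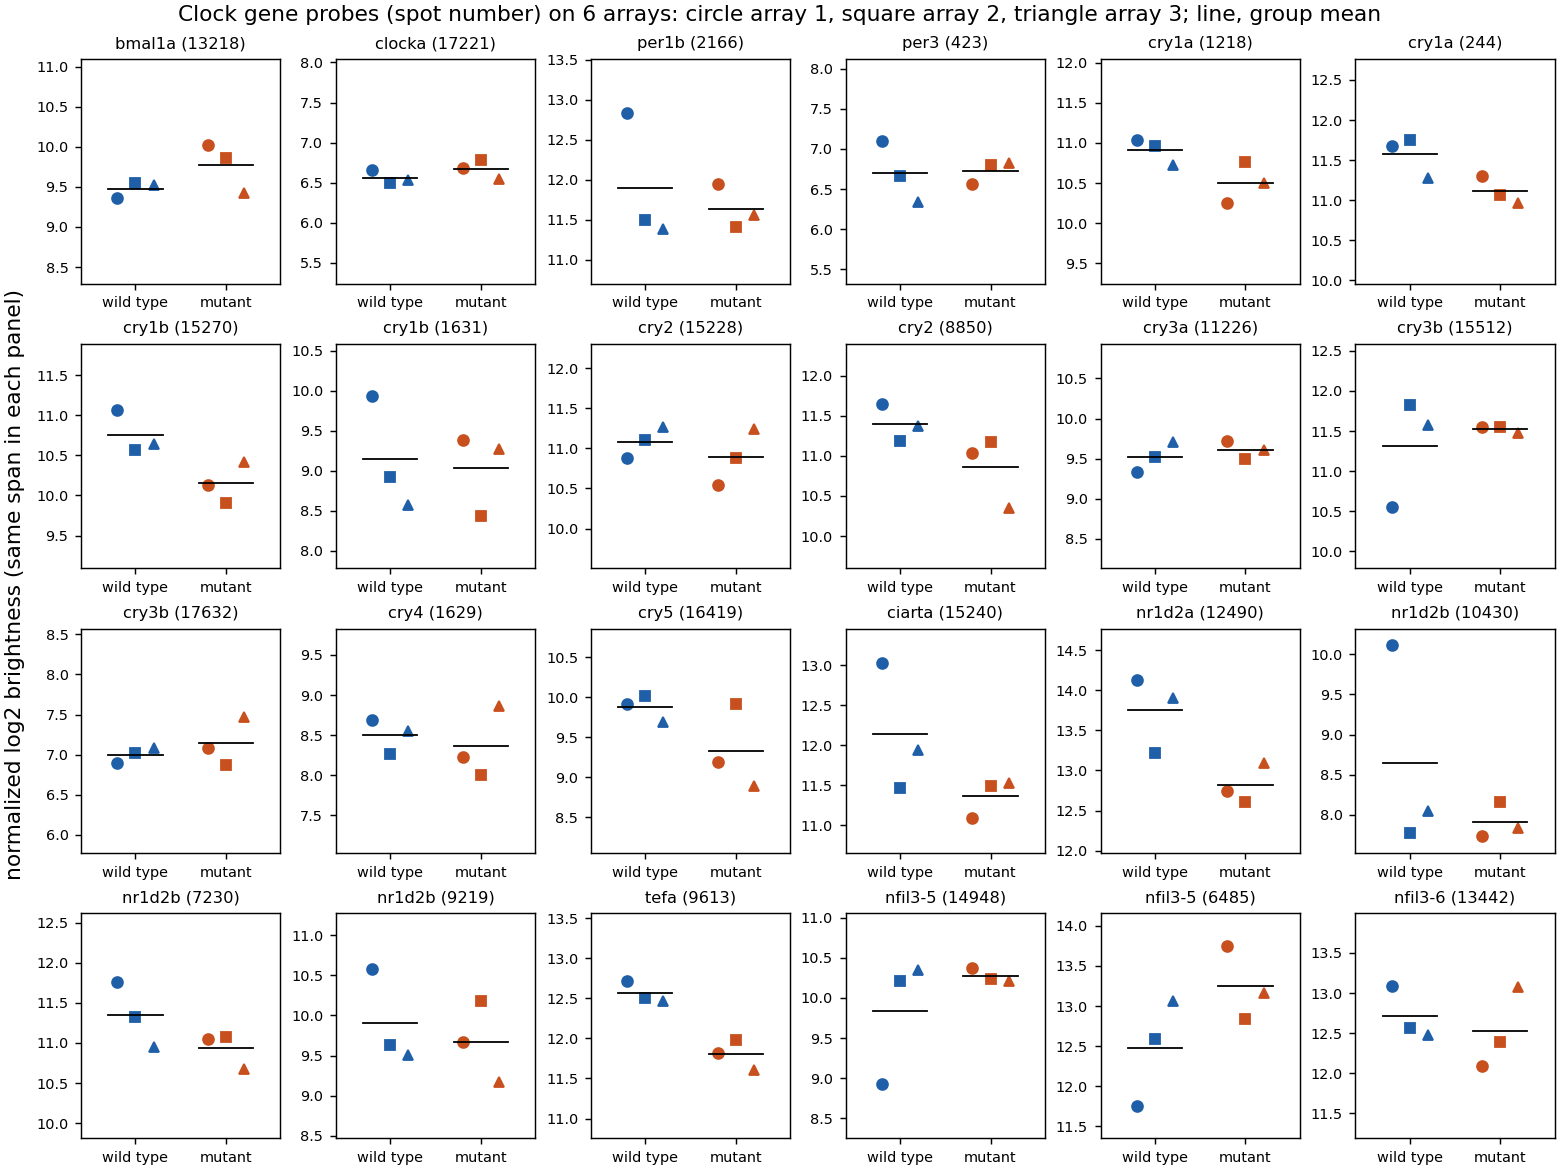
Normalized log2 brightness (y axis, with the same span in every panel) of the clock gene probes in wild type and mutant (x axis); circles, squares and triangles are arrays 1, 2 and 3 of a group and lines are group means. The wild-type circle lies alone above or below the other points on nr1d2b at spot 10430, ciarta, per1b and nfil3-5 at spot 14948, while on tefa the 3 mutant points lie together below the 3 wild-type points.

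The arrays were next compared one by one, since samples taken at different hours would differ in clock transcripts whatever their genotype. For each array, the clock probes were counted on which it lay over 0.5 (log2) above or below the range of the other 5 arrays. This count and its distance were chosen after the values had been seen. Wild-type array 1 did so on 7 of 24 clock probes (29.2%), against 2.41% of all probes. Mutant array 1 did so on 1 (nfil3-5 at spot 6485), against 0.954% of all probes, and mutant array 3 on 1 (cry2 at spot 8850), against 2.67%. Wild-type arrays 2 and 3 and mutant array 2 did so on 0, against 1.13%, 1.58% and 1.13% of all probes. At a distance of 0.3, mutant arrays 1 and 3 each lay outside on 3 clock probes, against 597 and 1272 of all 15617 probes. Wild-type array 1 did so on 10 clock probes, against 1105 of all. At a distance of 1, wild-type array 1 lay outside on 3 clock probes, against 53 of all. It was the highest array on 13 and the lowest on 5 of the 24 clock probes, while 37.7% of all probes had it as highest or lowest. It also had the lowest brightness of gene spots relative to blank spots. Its median gene spot was 4.75 times as bright as the blank spots, against 5.09 to 7.21 times on the others. On it 96.7% of probes were above the blank percentile, against 98.7% to 99.5% on the others. The part of this in its clock values was not tested.

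The 7 probes belong to 6 genes and lie in 6 print blocks of the array. On 4 of them wild-type array 1 was higher than the median of the other 5 arrays, by 4.86-fold on nr1d2b at spot 10430, 2.89-fold on ciarta, 2.52-fold on per1b and 2.01-fold on cry1b at spot 1631. On the other 3 it was lower, by 2.46-fold on nfil3-5 at spot 14948, 2.48-fold on nfil3-5 at spot 6485 and 2.00-fold on cry3b at spot 15512. Ranks were taken among 5701 probes with a gene symbol. For height above the other arrays, nr1d2b at spot 10430 ranked 1, ciarta 7, per1b 14 and the cry1b probe 59. For depth below them, nfil3-5 at spot 14948 ranked 8, the cry3b probe 16 and the other nfil3-5 probe 22. In the authors' deposited table, where each probe is divided by its median over the 6 arrays, wild-type array 1 has ratios of 3.91 for that nr1d2b probe, 2.80 for ciarta, 2.37 for per1b, and 0.428 and 0.431 for the nfil3-5 probes. The median distance of a clock probe from its median over the other arrays was 0.635 for wild-type array 1, against 0.211 over all its probes. The same distance was 0.150 to 0.382 for the clock probes of the other arrays, against 0.175 to 0.216 over all their probes. Mutant array 1 had the highest of these, at 0.382 against 0.186 over all its probes.

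**Figure D3:**
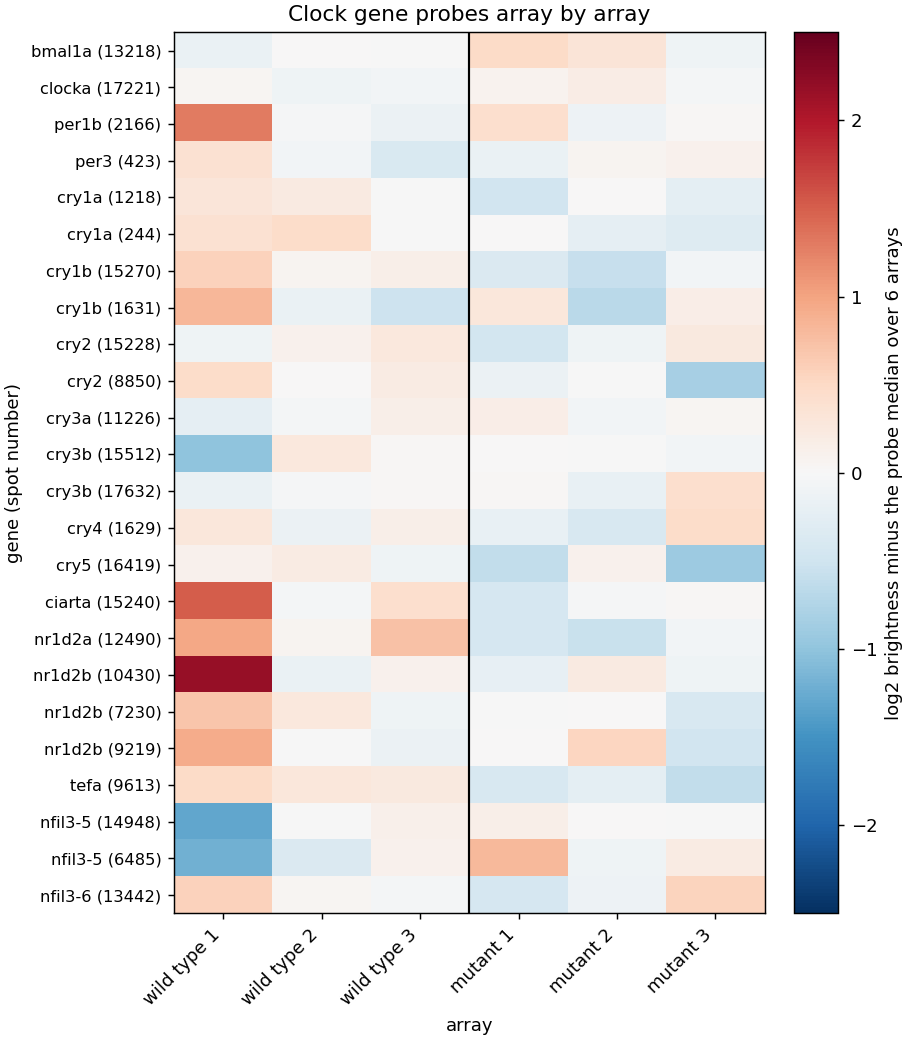
Log2 brightness of each clock gene probe (rows, gene and spot number) on each array (columns, wild type left of the line), minus the probe's median over the 6 arrays, as colour. The first column holds the strongest colours in both directions, high for nr1d2b at spot 10430, ciarta and per1b and low for the nfil3-5 probes, and on tefa the wild-type columns are above and the mutant columns below 0.

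A list of genes taken to peak near dawn held 7 tested probes (per1b, per3, nr1d2a, the 3 probes of nr1d2b, and ciarta). A list of genes taken to peak near dusk held 2 (clocka and bmal1a). Each probe was centred on its mean over the arrays, and the dusk mean was taken from the dawn mean. The result was 1.08, -0.07 and 0.00 in wild type and -0.51, -0.35 and -0.16 in the mutants, in the order of the arrays. Wild-type array 1 was far above the rest, and the mutant arrays were below the wild-type arrays. Of the dawn probes, nr1d2b at spot 10430, ciarta and per1b were among those counted above for wild-type array 1, so its value is no separate observation. The height of wild-type array 1 came from the dawn list, at 0.97 there and -0.29 to -0.10 on the other arrays, on which the dawn list of the 2 groups overlapped. The dusk list was 0.23 and 0.20 on mutant arrays 1 and 2 and -0.14 to -0.10 on the other 4 arrays. With wild-type array 1 left out, the values were 0.15 and 0.22 in wild type and -0.30, -0.13 and 0.06 in the mutants. These did not overlap, but each list taken alone did, and of the 2 dusk probes clocka was near the blank level. No test was made of these values, and time of sampling, which the labels do not give, cannot be told apart from other differences between single samples.

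**Figure D4:**
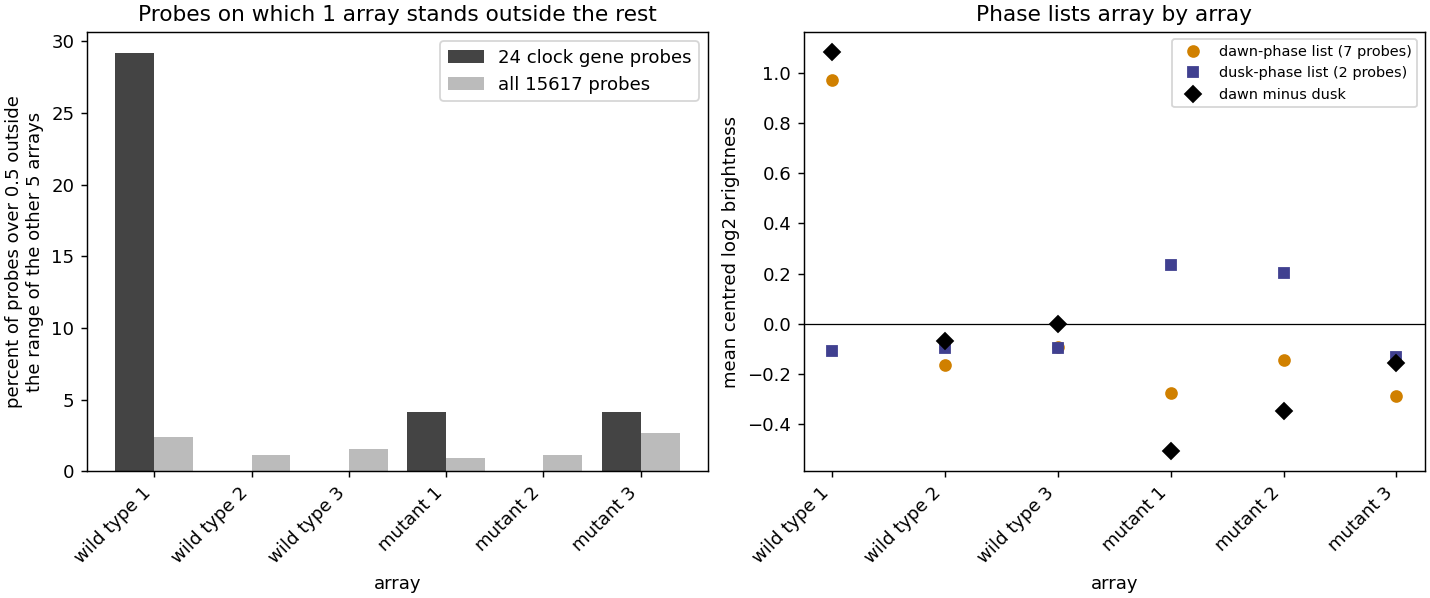
Left, percent of the 24 clock gene probes (dark bars) and of all 15617 probes (light bars) on which an array (x axis) lies over 0.5 log2 outside the range of the other 5; right, the mean centred log2 brightness of the dawn and dusk lists and their difference on each array. Wild-type array 1 reaches 29.2% against 2.41%, and its dawn minus dusk value of 1.08 is above all others.

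Lists of further clock-linked genes and of glucocorticoid response genes together held 28 genes with 31 tested probes outside the clock genes above. Of the 31 probes, 2 fell and 0 rose, against 2.36% of all probes called lower and 2.43% higher, and 5 of 31 probes (16.1%) had groups that did not overlap, all lower in the mutants, against 12.8% of all probes. The first, usp2a, codes for a deubiquitinase that in mammals acts on clock proteins. It read 13.73, 13.07 and 13.49 in wild type and 12.24, 12.05 and 12.32 in the mutants. The mutant arrays lay together, 0.75 below the lowest wild-type array, and the difference was -1.23 (SE 0.19, adjusted p = 0.0148, limma). The call held in 17 of 20 alternatives and was lost without wild-type array 3 (adjusted p = 0.0580, limma), without mutant array 1 (0.0600) and without both second-sample arrays (0.0610).

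The second, ddit4, codes for an inhibitor of mTOR signalling that glucocorticoids and stress induce. This gene was listed only among the glucocorticoid response genes, not among the clock-linked genes. It read 12.86, 10.76 and 13.58 in wild type and 6.77, 6.29 and 7.12 in the mutants. All 3 mutant arrays were near the level of the blank spots, while the wild-type arrays varied among themselves, with array 2 the lowest. The difference was -5.68 (SE 0.65, adjusted p = 0.00592, limma), and the call held in all 20 alternatives. The mean was 51.1-fold lower, a size that depends on the handling of the background and on single arrays: the difference was -4.85 without background correction, -6.65 with the offset on the undivided intensity, -6.48 without wild-type array 2 and -5.04 without wild-type array 3. The gene klf9, a transcription factor that glucocorticoids induce, had the third largest difference. It read 15.06, 14.36 and 14.59 against 13.91, 13.23 and 14.01. The groups did not overlap, and the difference was -0.95 (SE 0.26, adjusted p = 0.0835, limma). It passed with the block for the second-sample arrays (adjusted p = 0.0307, limma), under median scaling (0.0412) and on the authors' ratios (0.0327).

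The list of glucocorticoid response genes had 10 probes for 7 genes, with 3 probes of nr3c1 and 2 of pdk4. It includes nr3c1 as the gene of the glucocorticoid receptor itself. Of the 10 probes 9 were below 0, against 48.7% of all probes, among them the 3 of nr3c1 (-0.32, -0.24 and -0.10). On this list 1 probe was called lower, against 2.36% of all, and 0 higher, and the median was -0.36. The immunophilin gene fkbp5, named after its values were seen, had a difference of -0.84 (SE 0.32, adjusted p = 0.180, limma), and of -1.22 without mutant array 3, where it passed (adjusted p = 0.0325, limma). On the list of light-induced genes, which holds tefa, both cry1a probes and cry5 together with cat and xpc, 5 of 6 probes were below 0, against 48.7% of all probes, 1 was called lower, against 2.36% of all, and 0 higher, and the median was -0.49. The DNA damage sensor xpc, also named after its values were seen, read 10.24, 10.46 and 10.22 in wild type and 9.82, 9.75 and 9.78 in the mutants. Its groups did not overlap, and the difference was -0.52 (SE 0.12, adjusted p = 0.0576, limma). It passed without background correction (adjusted p = 0.0455, limma), with the local background subtracted (0.0496) and with array weights (0.0397). Over all probes the median was 0.01.

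The kinases, phosphatases and ligases that act on clock proteins had 12 probes, of which 1, usp2a, was called lower, against 2.36% of all probes, and 0 higher, with a median of -0.00. Casein kinase csnk1db, which phosphorylates period proteins and was named after its values were seen, read 13.07 on wild-type array 1 and 12.19 to 12.36 on the other 5 arrays. Its relative csnk1da spanned 12.21 to 12.46 over all 6 arrays and array 1 was not apart from the rest. The melatonin and output list had 4 probes and 0 calls, against 4.78% of all probes. On 1 of the 4, klf9, described above, the mutants lay wholly below wild type, against 12.8% of all probes. The pineal melatonin enzyme gene aanat2 spanned 6.68 to 7.44, near the level of the blank spots. The summed level of 8 photoreceptor and pineal probes was 787 to 912 in wild type and 875 to 1018 in the mutants, so it overlapped between groups. These levels were low, which limits what the overlap can show.

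**Figure D5:**
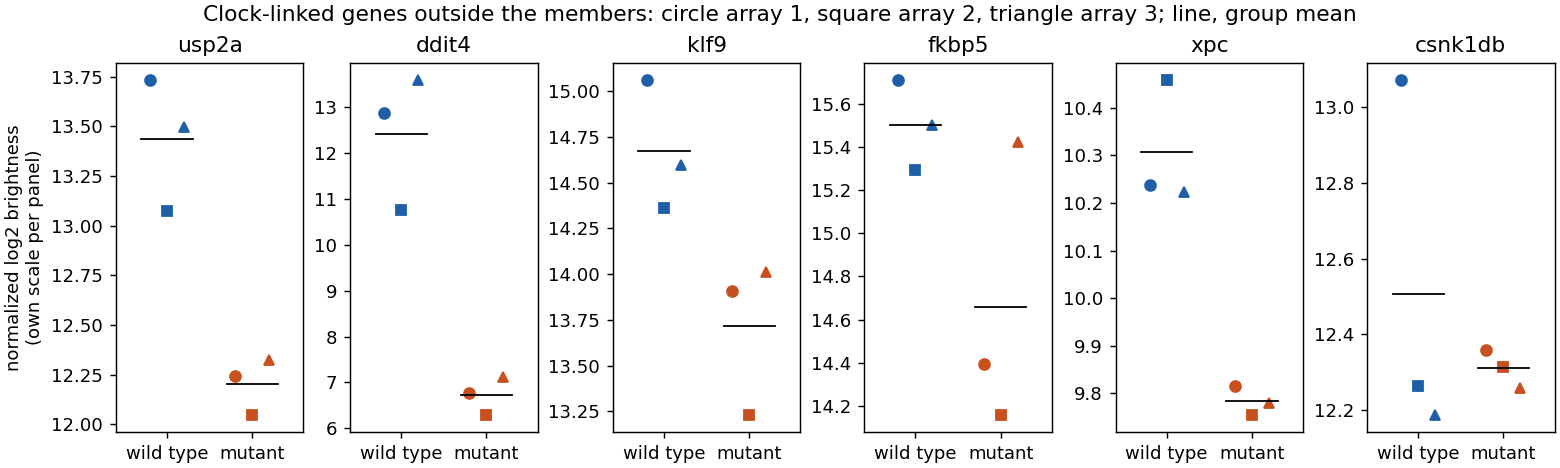
Normalized log2 brightness (y axis, own scale per panel) of usp2a, ddit4, klf9, fkbp5, xpc and csnk1db in wild type and mutant (x axis); circles, squares and triangles are arrays 1, 2 and 3 of a group and lines are group means. The 3 mutant points lie below the 3 wild-type points for usp2a, ddit4, klf9 and xpc, and for csnk1db the circle of wild-type array 1 lies alone at 13.07.

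Outside the clock genes, the probes with 1 gene symbol whose pattern over the 6 arrays was most like that of tefa were wu:fc38h03, slain2 and trac, with Pearson correlations of 0.998, 0.995 and 0.990 among 5677 candidates. With 6 arrays in 2 groups, these values describe the arrays and carry no test. The T cell receptor gene trac read 10.70, 10.66 and 10.53 in wild type and 9.63, 9.72 and 9.23 in the mutants. On all 3 probes, as for tefa, the groups were apart and mutant array 3 was the lowest. The 3 were picked for their likeness to tefa, so this shared pattern follows from the choice. Groups were apart on 25.7% of all probes.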

How the data were processed

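Clock genes were found by symbol in GEO's annotation of the array, with symbols brought to those of assembly GRCz12tu by gene identifier. The members, the gene lists and the tests were chosen with earlier results of these data known. The authors deposited, for every spot, a raw intensity beside its local background, and the file headers record no subtraction or normalization. Brightness is summed over the spot, with a ceiling of 6553500, and was divided by 100. The table of values that the authors deposited gives a ratio to each probe's median over the arrays, with their scaling unstated, and served as an alternative. Scanner and software: neither is given in the sources used here.

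In limma 3.58.1 (R 4.3.3), background was corrected by normexp (offset 50), control spots were dropped, 172 actin spots averaged, and arrays quantile normalized. Probes were kept that exceeded the blank spots' 95th percentile throughout at least 1 group, with both taken before quantile normalization. Groups were compared with lmFit and eBayes, 2-sided, adjusted over 15617 probes. An earlier run that kept blank and control spots in the normalization called 761 probes; the order used here, taken after that count was seen, called 747. The code was tested on simulated data.

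The misread block held 400 spots (correlation with the other arrays 0.236 at their own place and 0.983 at 1 row away). All 24 clock probes tested were above the blank percentile on all 6 arrays and none was saturated. Precision is limited by the number of arrays. The titles of both groups share only the number 2, so other array numbers pair nothing. The deviations of the 2 second-sample arrays from their group means had a correlation of r = 0.223. No other pair of arrays was compared in this way, so the value does not show that these 2 go together. A block for them, resting on the shared title number, was run as an alternative. Named were every clock probe and the other pathway genes that passed the test or were among the 3 largest differences. The 3 probes most like each called gene were also named. Pathway genes given with values beyond these rules were fkbp5, xpc, csnk1db, csnk1da, aanat2 and nr3c1. A probe may also detect close relatives, which was not tested. No sequences were used.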

Additional observations from a re-analysis of the deposited data

How the results depend on the processing

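Of 600 comparisons of a single probe under an alternative with its own reported value, 561 kept direction and side of the threshold, 11 gained a call, 9 lost one and 19 changed sign. The count of clock probes called was 2 under median scaling, on the authors' ratios and with the replicate block, which pairs arrays only by the title number 2, 0 without both second-sample arrays, and 0 to 1 on leaving out each array in turn; the addition under the first 3 was nr1d2a. The count over all probes was 80 without both second-sample arrays and 247 to 598 on leaving out each array, and that of pathway genes outside the clock genes 1 and 1 to 3. The clock median was -0.17 with array weights, -0.27 without both second-sample arrays and -0.42 to -0.030 on leaving out each array. On leaving out each array, the dawn minus dusk value ran from -0.58 to -0.30 on mutant array 1, from -0.45 to -0.13 on mutant array 2 and from -0.26 to 0.062 on mutant array 3, with the upper end of each without wild-type array 1; that of wild-type array 1 was 0.93 to 1.16 over 17 alternatives. Signs changed on leaving out single arrays, with ranges of -0.14 to 0.23 for per3, -0.39 to 0.038 for cry4, -0.40 to 0.28 for cry1b at spot 1631, -0.52 to 0.20 for per1b, -0.49 to 0.11 for nr1d2b at spot 9219, -0.0075 to 0.17 for cry3a, -0.47 to 0.023 for nfil3-6, -0.013 to 0.69 for nfil3-5 at spot 14948, -0.17 to 0.46 and -0.024 to 0.28 for cry3b at spots 15512 and 17632, and -0.36 to 0.086 for csnk1db. Array weights gave 0.020 for cry1b at spot 1631, and leaving out both second-sample arrays gave 0.076 for it and -0.020 for per3. None of these passed the test in any setting run. Fewer arrays enter when any is left out; other causes were not tested. Spots near the blank level (clocka, per3, cry3b at spot 17632 and, outside the clock genes, aanat2) limit what their probes can show.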
